A study of Mus musculus with 179 samples.

Results

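The 9 genes described here are 2 cadherins and 7 genes that are widely used to mark an epithelial-mesenchymal transition (EMT), taken by name from a table of 32100 genes: Cdh1, Cdh2, Vim, Fn1, Snai1, Snai2, Zeb1, Zeb2 and Twist1. All 9 had an entry in the table of unique molecular identifiers (UMIs, tags that let each captured RNA molecule be counted once). They were followed in single cells of 1 group, each a sample of its own named Acinar and a number. The cells came from the exocrine pancreas of wild-type C57BL6 mice as primary acinar cells and had spent 9 days in culture as organoids in Matrigel, a gel of basement membrane proteins, before RNA was read by Smart-seq3. On the mouse build GRCm38 the genes lie with Cdh1 at chr8:106603351-106670246, Cdh2 at chr18:16588877-16809246, Vim at chr2:13573927-13582826, Fn1 at chr1:71585520-71653200, Snai1 at chr2:167538195-167542814, Snai2 at chr16:14705852-14709385, Zeb1 at chr18:5591860-5775467, Zeb2 at chr2:44983632-45117395 and Twist1 at chr12:33957671-33959829, with Cdh2, Fn1 and Zeb2 on the minus strand. No animal or culture is named and no uncultured cell is analysed here, so the values below describe these cells, with no test and no p-value.

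EMT is a programme in which an epithelial cell gives up its junctions and polarity and takes on the shape and motility of a mesenchymal cell. Transcription factors of the Snail, ZEB and Twist families drive it in large part by repressing Cdh1, the gene of the adherens junction protein E-cadherin, while N-cadherin (Cdh2), vimentin (Vim) and fibronectin (Fn1) are used as signs that a cell has moved along it. In the pancreas, acinar cells that turn into duct-like cells after injury stay epithelial, and EMT is described mostly in the progression of duct adenocarcinoma. Fibroblasts and stellate cells of the organ carry the mesenchymal genes as part of their normal identity.

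The cells were divided by genes other than the 9, with levels in CPM (UMIs scaled to a total of 1000000 in each cell). The epithelial class, 80 cells with title numbers up to 96 and 93 with title numbers from 97, held 0 to 288 CPM of 10 fibroblast genes, among them Col1a1, Col1a2, Col3a1, Pdgfrb and Dcn (median 0). The fibroblast-rich class, 6 cells, held 3828 to 11001 CPM of the same genes (median 6894). No cell lay between 288 and 3828 CPM, on either side of the limit of 1000 CPM, and epithelial cells made up 96.6% and fibroblast-rich cells 3.35% of all cells. Each epithelial cell held 4543 CPM or more of 8 epithelial keratin, claudin and Epcam genes (median 15306), against 555 to 972 CPM in 5 fibroblast-rich cells and 6987 CPM in Acinar188. The label calls all cells acinar. Yet 10 digestive enzyme genes had a median of 122.4 CPM in the epithelial cells and 135.6 CPM in the fibroblast-rich cells. The highest epithelial cells were Acinar52 at 225683 CPM, Acinar55 at 21599 CPM and Acinar155 at 9956 CPM. Depth was a median of 165267 UMIs in the epithelial cells (3258 to 329522) and 169027 in the fibroblast-rich cells (133748 to 228062). In a cell of few UMIs a single UMI is a large CPM value, and all intervals below are exact 95% intervals that cover counting error only.

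Cdh1, the cadherin of epithelial adherens junctions, was present in every epithelial cell. Over the epithelial cells its level ran from 127.02 CPM in Acinar161 through a median of 422 to 1432 CPM in Acinar165, against a median of 10.9 CPM in the fibroblast-rich cells. In the fibroblast-rich cells it stood at 17.5 CPM in Acinar5, 6.45 in Acinar6, 9.38 in Acinar44, 12.5 in Acinar105, 7.48 in Acinar182 and 89.7 in Acinar188. The lowest epithelial cell was thus above the highest fibroblast-rich one, although that lowest value rests on 3 UMIs in a cell of 23618 UMIs. Pooled over the UMIs of all cells of a class, Cdh1 stood at 476 CPM (468 to 485) in epithelial cells and at 24.3 CPM (15.9 to 35.7) in fibroblast-rich cells, a log2 ratio of 4.29 (3.74 to 4.91). Acinar188 alone held 61.5% of the 26 Cdh1 UMIs of the fibroblast-rich cells, and without it the log2 ratio was 5.41. For detection at equal depth, each cell was thinned by drawing 40000 of its UMIs at random, and the 18 epithelial cells with fewer were left out. At that depth a Cdh1 UMI was seen in 100% of epithelial cells (97.6 to 100%) and in 4 of the 6 fibroblast-rich cells (66.7%, 22.3 to 95.7%). Without thinning both shares were 100%, so in full-depth cells a single Cdh1 UMI does not tell the classes apart and the level does. Of the cells with the most digestive enzyme RNA, Acinar52 carried Cdh1 at 155.7 CPM, near the low end of the epithelial range, and Acinar55 and Acinar155 carried it at 979 and 934 CPM, near the high end. Acinar52 had 1 UMI of Cdh2 (5.56 CPM) and none of the other 7 members.

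Cdh2, the gene of N-cadherin, which many mesenchymal and neural cells use for adhesion, was sparse in epithelial cells. A UMI was found in 17 epithelial cells (9.83%, 5.83 to 15.3%), against 5 of the 6 fibroblast-rich cells (83.3%, 35.9 to 99.6%). Thinning left 5 epithelial cells (3.23%, 1.06 to 7.37%) and 4 of 6 fibroblast-rich cells. Pooled levels were 1.91 CPM (1.42 to 2.51) in epithelial cells and 51.5 CPM (38.8 to 67.02) in fibroblast-rich cells, a log2 ratio of -4.76 (-5.33 to -4.18). The fibroblast-rich cells were unlike one another for this gene, at 122.8 CPM in Acinar5, 116.1 in Acinar6, 37.4 in Acinar182, 18.8 in Acinar105, 4.69 in Acinar44 and 0 in Acinar188. The classes overlapped. Among epithelial cells of at least 40000 UMIs the highest was Acinar132, at 101.01 CPM from 17 UMIs, and Acinar172 followed at 54.9 CPM from 5 UMIs and Acinar66 at 34.1 CPM from 9 UMIs. Acinar132 and Acinar66 held 50.98% of the 51 Cdh2 UMIs of the epithelial class, and without them the log2 ratio was -5.76. The nominal maximum, 129.9 CPM in Acinar110, was 1 UMI in a cell of 7699 UMIs.

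**Figure D1:**
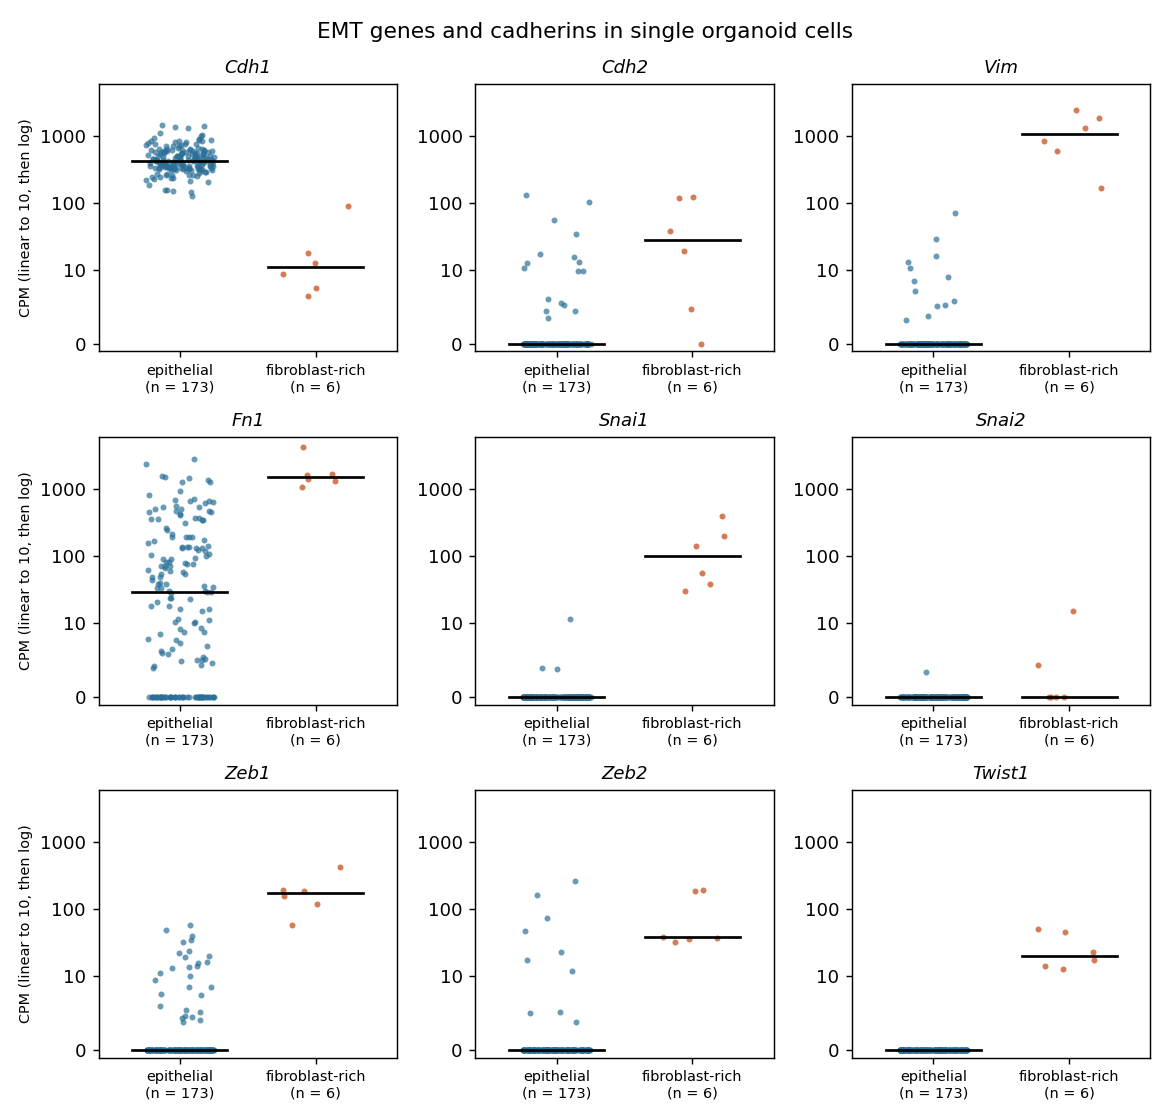
Level of each of the 9 genes in every cell, in CPM on an axis that is linear up to 10 and logarithmic above; each point is a cell, blue for epithelial cells and orange for the 6 fibroblast-rich cells, and the bar is the median. Cdh1 is at least 127.02 CPM in every epithelial cell, Fn1 spreads from 0 to 2826 CPM among epithelial cells, and Twist1 is at 0 in all of them.

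Vim encodes vimentin, the intermediate filament protein of mesenchymal cells, and it separated the classes with no overlap. In epithelial cells the median was 0 and the highest value was 70.1 CPM, in Acinar87. In the fibroblast-rich cells it stood at 2394 CPM in Acinar5, 1284 in Acinar6, 595 in Acinar44, 1847 in Acinar105, 837 in Acinar182 and 168.2 in Acinar188. A Vim UMI was present in 13 epithelial cells (7.51%, 4.06 to 12.5%), against 6 of 6 fibroblast-rich cells (54.1 to 100%). Of these 13 cells, 9 had 1 UMI, 2 had 2 UMIs, Acinar149 had 3 and Acinar87 had 7. Another 3 epithelial cells had Vim reads but no Vim UMI. After thinning, 5 epithelial cells (3.23%) had a Vim UMI. The pooled level was 0.860 CPM (0.545 to 1.29) in epithelial cells, from 23 UMIs, and 1225.5 CPM in fibroblast-rich cells, from 1309 UMIs, a log2 ratio of -10.48 (-11.14 to -9.89).

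Fn1, which encodes fibronectin, a matrix glycoprotein that fibroblasts and many epithelia secrete, was not limited to the fibroblast-rich class. Among epithelial cells 71.7% had a UMI (64.3 to 78.3%) and 49 had none, with a median of 28.4 CPM, quartiles of 0 and 154.7 and a highest value of 2826 CPM in Acinar16. Levels in the fibroblast-rich cells ran from 1064 CPM in Acinar105 through a median of 1501 to 4207 in Acinar6. After thinning the epithelial share was 56.8% (48.6 to 64.7%), against 6 of 6 fibroblast-rich cells. The pooled levels were 162.6 CPM (157.8 to 167.5) in epithelial cells and 1810 CPM in fibroblast-rich cells, a log2 ratio of -3.48 (-3.55 to -3.40). The classes overlapped: 8 epithelial cells were at or above the lowest fibroblast-rich cell, and they held 37.5% of the Fn1 UMIs of the epithelial class.

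Those 8 epithelial cells, singled out after their values were seen, had Cdh1 at levels of the epithelial class. Fn1 stood at 2826 CPM in Acinar16, 2361 in Acinar183, 1582 in Acinar87, 1524 in Acinar143, 1449 in Acinar49, 1372 in Acinar101, 1276 in Acinar145 and 1269 in Acinar66. Their Cdh1 level ran from 354 to 808 CPM (median 537), inside the range of the epithelial class, and their epithelial list from 12700 to 29475.5 CPM. The fibroblast list was at most 91.8 CPM in them, in Acinar183; both lists had been used to form the class, so these values only place the cells within it. Of the other members, a Zeb1 UMI was seen in 6 of the 8, a Vim UMI in 2 (Acinar87 and Acinar183), a Cdh2 UMI in 2, and Snai1, Snai2, Zeb2 and Twist1 in 0. Of the 8 cells, 4 had title numbers up to 96 and 4 from 97.

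**Figure D2:**
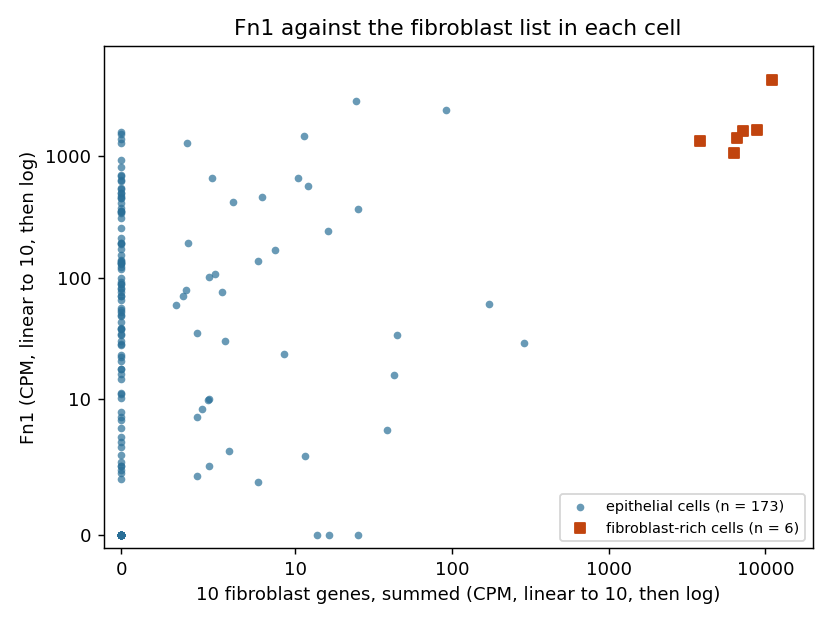
Fn1 in CPM (vertical) against the summed level of the 10 fibroblast genes in CPM (horizontal) in each cell, both linear up to 10 and logarithmic above; blue circles are epithelial cells and orange squares fibroblast-rich cells. Epithelial cells with Fn1 above 1064 CPM have at most 91.8 CPM of the fibroblast genes, and the 6 fibroblast-rich cells have 3828 CPM or more.

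Of the transcription factors, Snai1 and Twist1 were at or near 0 in the epithelial class and had a UMI in every fibroblast-rich cell, and the stretch before the start of each gene is shown for that reason. The sequences are the 250 bases before the RefSeq start (GRCm38.p6, both on the plus strand, at chr2:167537945-167538194 for Snai1 and chr12:33957421-33957670 for Twist1). Capitals mark CACCTG or its reverse complement CAGGTG, the E-box letters that Snail and ZEB proteins are known to bind, searched on both strands.
Snai1: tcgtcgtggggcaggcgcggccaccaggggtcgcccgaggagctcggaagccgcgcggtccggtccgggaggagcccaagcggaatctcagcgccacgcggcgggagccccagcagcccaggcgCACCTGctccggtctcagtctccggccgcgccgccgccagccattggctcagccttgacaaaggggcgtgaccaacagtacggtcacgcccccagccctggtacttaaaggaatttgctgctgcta
Twist1: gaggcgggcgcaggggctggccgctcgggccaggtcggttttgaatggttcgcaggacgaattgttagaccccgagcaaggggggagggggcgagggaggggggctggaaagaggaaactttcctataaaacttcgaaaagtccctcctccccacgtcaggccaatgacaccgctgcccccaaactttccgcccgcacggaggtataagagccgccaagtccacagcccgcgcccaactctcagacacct
The window of Snai1 held 1 match and that of Twist1 held 0. Over the 32817 windows of the same length in the table, 17.2% held a match. An entry was found for 4 of the 9 members (Vim, Zeb2, Snai1 and Twist1), and Snai1 was the only one of these with a match. The Vim window and some of the Zeb2 windows lay inside the annotated gene, so they do not describe the stretch before it. A match describes letters and not a bound site.

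Snai1, a zinc finger repressor of Cdh1 that early growth signals induce, had 4 UMIs in all epithelial cells together, spread over 3 cells (1.73%, 0.359 to 4.98%). The highest epithelial cell, Acinar59, stood at 11.2 CPM from 2 UMIs. In the fibroblast-rich cells it stood at 399 CPM in Acinar5, 200 in Acinar6, 140.2 in Acinar188, 56.3 in Acinar105, 37.5 in Acinar44 and 29.9 in Acinar182. All 6 were above every epithelial cell. The pooled log2 ratio was -10.04 (-11.93 to -8.66), from 0.149 CPM in epithelial cells and 157.3 CPM in fibroblast-rich cells.

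Twist1, a basic helix-loop-helix factor of mesoderm and neural crest, had 0 UMIs in all epithelial cells together. With 26757278 UMIs in that class, 3 counts correspond to 0.112 CPM, so against that floor the epithelial level was at least 234-fold lower than the 26.2 CPM (17.4 to 37.9) of the fibroblast-rich cells. The exact interval of the ratio, which also covers the error of the fibroblast-rich level, begins at 177.9-fold. After thinning, 0 epithelial cells had a UMI, which allows a share of up to 1.94% by 3 counts and up to 2.35% by the exact interval. In the fibroblast-rich cells Twist1 ran from 12.9 CPM in Acinar6 to 50.1 in Acinar105, with a median of 19.98. The numbers are small, 2 to 8 UMIs in each of those cells and 28 in all.

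Snai2, the close relative of Snai1 that is also named Slug, was rare in both classes. It had 1 UMI among the epithelial cells, in Acinar42, and 3 among the fibroblast-rich cells, 2 in Acinar182 and 1 in Acinar5. The fibroblast-rich level of 2.81 CPM is that of 3 counts. The log2 ratio of -6.23 has an interval from -11.95 to -2.59, and the gene had too few UMIs to enter the comparison over all genes. Within the fibroblast-rich cells, Snai1 was thus seen in 6 of 6 and Snai2 in 2 of 6.

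Zeb1, a zinc finger and homeodomain repressor that forms a mutual inhibition with the miR-200 family, was seen in 29 epithelial cells (16.8%, 11.5 to 23.2%), each with at most 4 UMIs. The highest epithelial value was 57.6 CPM, in Acinar108. In the fibroblast-rich cells it stood at 422 CPM in Acinar44, 192.9 in Acinar5, 187.8 in Acinar105, 157.01 in Acinar182, 117.8 in Acinar188 and 58.1 in Acinar6. The classes therefore did not overlap, but the gap of 57.6 to 58.1 CPM between them is smaller than the worth of 1 UMI in either cell. Pooled levels were 2.21 CPM (1.68 to 2.84) in epithelial cells and 201 CPM (175.3 to 230.1) in fibroblast-rich cells, a log2 ratio of -6.51 (-6.95 to -6.09). After thinning, a Zeb1 UMI was left in 9.68% of epithelial cells (5.52 to 15.5%), against 6 of 6 fibroblast-rich cells.

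Zeb2, the other member of the ZEB family, was seen in 10 epithelial cells (5.78%, 2.81 to 10.4%) and in 6 of 6 fibroblast-rich cells. In the fibroblast-rich cells there was a low and a high set, with 32.3 to 37.6 CPM in Acinar5, Acinar6, Acinar44 and Acinar105, and with 186.9 and 190.7 CPM in Acinar182 and Acinar188. Pooled levels were 1.20 CPM (0.818 to 1.69) in epithelial cells and 80.5 CPM (64.4 to 99.4) in fibroblast-rich cells, a log2 ratio of -6.07 (-6.71 to -5.47). The classes overlapped. The highest epithelial values were 259.8 CPM in Acinar110 and 160.7 CPM in Acinar125, each from 2 UMIs in a cell of 7699 and 12442 UMIs, and among deeper cells Acinar156 stood at 73.4 CPM from 9 UMIs and Acinar132 at 47.5 CPM from 8 UMIs. Acinar156 and Acinar132 held 53.1% of the Zeb2 UMIs of the epithelial class, and without them the log2 ratio was -7.15. Zeb2os, a gene on the opposite strand that overlaps Zeb2, had 0 UMIs in epithelial cells and 8 in fibroblast-rich cells. Whether the counting used strand is not given, so reads of this pair may not be told apart. The same holds for Fn1 and Apol7d, which had 10 UMIs in epithelial cells and 0 in fibroblast-rich cells, and for Zeb1 and Gm10125, which had 3 and 4.

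In the comparison over all genes, 8 members had the 10 UMIs asked for. Cdh1 was at least 4-fold higher in epithelial cells, with 1 CPM added to each pooled level, as were 6.91% of the 20125 genes compared. The other 7 were at least 4-fold lower, as were 6.7% of all genes. Snai1 and Twist1, with 4 and 0 UMIs in epithelial cells, reached 10 UMIs only through the fibroblast-rich class, where they are high. Their places among the lower genes and among those without overlap therefore carry no weight of their own. Every epithelial cell was above every fibroblast-rich cell for Cdh1, a pattern that 0.00994% of genes showed (2 genes), and every epithelial cell was below every fibroblast-rich cell for Vim, Snai1, Zeb1 and Twist1, as for 0.616% of genes. With 1 CPM added, the median log2 ratio was -4.99 over the 8 members and 0.19 over all genes compared. These genes were chosen as known opposites of epithelial and mesenchymal cells, so the shares describe how far apart the classes lie and are not a sign that the list is special.

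The endothelial list, which holds genes of blood vessel cells that other mesenchymal cells can share, had a median of 10.3 CPM and a highest value of 363 CPM in epithelial cells, against 110 to 490 CPM in each fibroblast-rich cell. Of its 6 genes, 5 had a UMI in epithelial cells and 6 in fibroblast-rich cells. The immune list stood at 0 to 259 CPM in epithelial cells (median 0) and at 0 to 17.5 CPM in fibroblast-rich cells, where 3 of 7 genes had a UMI. Mesothelial genes had a median of 250 CPM and a highest value of 7157 CPM (Acinar162) in epithelial cells and stood at 7.48 to 258 CPM in fibroblast-rich cells. Of the 5 mesothelial genes, 3 had a UMI in epithelial cells and 2 in fibroblast-rich cells. Endocrine genes had a median of 37.5 CPM and a highest value of 9227 CPM (Acinar171) in epithelial cells and stood at 0 to 134.6 CPM in fibroblast-rich cells. The part of these genes in the levels of the 9 members was not tested.

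The cells were also divided by title number, up to 96 and from 97, because the median depth of the epithelial cells was 198517 UMIs in the lower numbers and 120410 UMIs in the higher ones; the labels do not say whether the numbers follow plates. Each side held 3 fibroblast-rich cells. Pooled Cdh1 was 466.4 CPM in epithelial cells and 11.7 CPM in fibroblast-rich cells of the lower numbers, and 490.05 CPM in epithelial cells and 40.3 CPM in fibroblast-rich cells of the higher ones. Acinar188 held 16 of the 19 UMIs behind the 40.3 CPM, and without it the value was 10.2 CPM. Vim was 0.705 CPM in epithelial cells and 1462 CPM in fibroblast-rich cells of the lower numbers, and 1.08 CPM in epithelial cells and 926 CPM in fibroblast-rich cells of the higher ones. Both genes therefore kept their direction on each side, as did Cdh2, Fn1, Snai1, Zeb1 and Zeb2. Cdh2 kept its direction but not its size, with a log2 ratio of -6.02 in the lower numbers and -2.56 in the higher ones. It stood at 1.22 CPM in epithelial cells and 78.8 CPM in fibroblast-rich cells of the lower numbers. Its epithelial and fibroblast-rich levels in the higher numbers were 2.87 and 16.96 CPM, the latter from 8 UMIs. Zeb2 differed between the sides in both classes, with 0.320 CPM in epithelial cells and 35.2 CPM in fibroblast-rich cells of the lower numbers, and 2.42 CPM in epithelial cells and 137.8 CPM in fibroblast-rich cells of the higher ones. Few cells set the values of the higher numbers: without Acinar132 and Acinar156, which held 17 of 27 UMIs, the epithelial value was 0.920 CPM, and without Acinar182 and Acinar188, which held 59 of 65, the fibroblast-rich value was 37.6 CPM. Twist1 was at 0 in the epithelial cells of both.

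How many of the 7 mesenchymal members other than Fn1 (Cdh2, Vim, Snai1, Snai2, Zeb1, Zeb2 and Twist1) a cell carried was counted at equal depth. Of the thinned epithelial cells 85.8% had a UMI of 0 of them, 9.68% (15 cells) of 1 and 4.52% (7 cells) of 2, and no cell had more. Of the 6 thinned fibroblast-rich cells, 1 had 4, 2 had 5 and 3 had 6. Without thinning, 120 epithelial cells (69.4%) had none of the 7, 36 had 1, 14 had 2 and 3 had 3, against 5 to 7 in each fibroblast-rich cell. No cell of either class had an intermediate count of 4 at full depth.

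**Figure D3:**
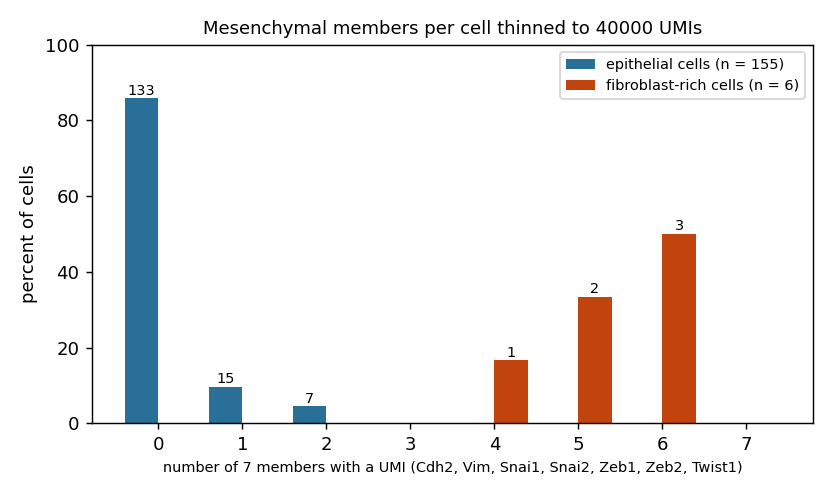
Percent of cells (vertical) by the number of the 7 mesenchymal members with a UMI (horizontal) after thinning every cell to 40000 UMIs; blue bars are the epithelial cells and orange bars the 6 fibroblast-rich cells, and the number above each bar is the count of cells. Epithelial cells carry 0 to 2 of the 7 and fibroblast-rich cells 4 to 6.

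A partial switch was defined as an epithelial cell with at least 3 UMIs of Cdh1, at least 3 of Vim and at least 1 of Cdh2, Snai2, Zeb1, Zeb2 or Twist1. Acinar87 was the only epithelial cell that met it (0.578%, 0.0146 to 3.18%). It held 38 UMIs of Cdh1 (380 CPM), 7 of Vim (70.1 CPM), 2 of Zeb1 (20.03 CPM) and Fn1 at 1582 CPM among 99869 UMIs, with no UMI of Cdh2, Snai1, Snai2, Zeb2 or Twist1 (Zeb2 had 1 read). Its epithelial list stood at 19796 CPM and none of the 10 fibroblast genes had a UMI. Its Vim level was below that of every fibroblast-rich cell, its Fn1 level lay within their range, and its Cdh1 level was above that of each of them. The Vim UMIs were backed by 12 reads. After thinning to 40000 UMIs the cell no longer met the rule, and with a Vim minimum of 10 UMIs no cell did.

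The rule's neighbours were few. With 1 Vim UMI in place of 3, 6 cells met it: Acinar87, Acinar108, Acinar117, Acinar130, Acinar150 and Acinar183. With no other factor asked for, Acinar149 was added to Acinar87; it had 3 Vim UMIs (16.1 CPM), Cdh1 at 418 CPM and no UMI of the fibroblast list. On read counts with the same minimums, 3 cells met the rule, Acinar87, Acinar130 and Acinar150. With 2 of the 5 other factors asked for beside 3 Vim UMIs, no cell met it.

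**Figure D4:**
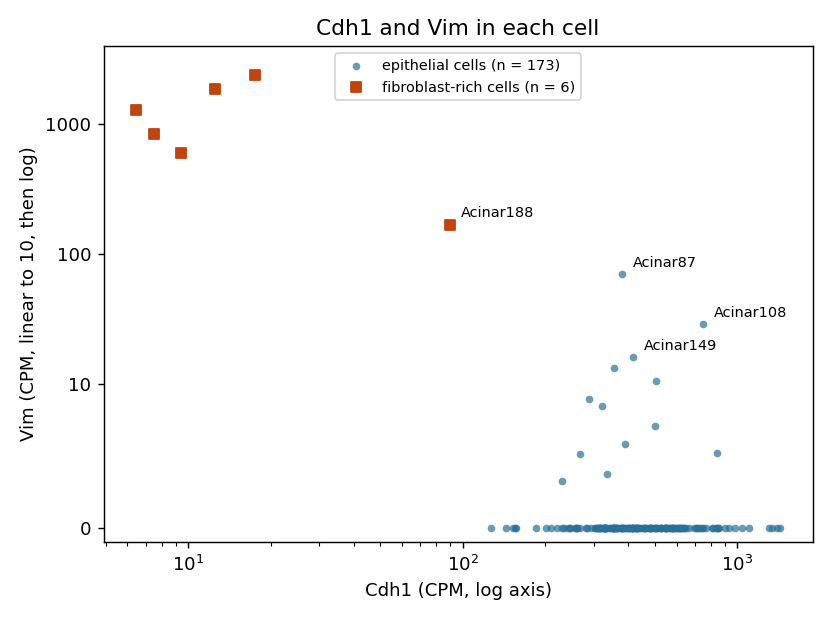
Vim in CPM (vertical, linear up to 10 and logarithmic above) against Cdh1 in CPM (horizontal, logarithmic) in each cell; blue circles are epithelial cells and orange squares fibroblast-rich cells. Acinar87, at 380 CPM of Cdh1 and 70.1 CPM of Vim, and Acinar188, at 89.7 and 168.2 CPM, are the cells of their class nearest to the other one on the vertical axis.

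Other epithelial cells carried mesenchymal members without Vim, so they could not meet the partial switch rule. They were picked after their values were seen. Acinar132 had 17 UMIs of Cdh2, 8 of Zeb2 and 1 of Zeb1, with 57 of Fn1, 56 of Cdh1 (333 CPM) and no UMI of Vim or of the fibroblast list. Acinar156 had 9 UMIs of Zeb2 and 2 of Zeb1, with Cdh1 at 750 CPM and no UMI of Vim, Cdh2 or the fibroblast list. Acinar66 had 9 UMIs of Cdh2 and 335 of Fn1 at a Cdh1 level of 583 CPM, again with no Vim. Acinar140 had 4 UMIs of Zeb1, 2 of Zeb2 and 1 of Cdh2, with Fn1 at 564 CPM, Cdh1 at 900 CPM and no Vim. In all, 35 epithelial cells had a UMI of Zeb1 or Zeb2, and 4 of these had both.

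Some of the cells with mesenchymal UMIs also carried fibroblast transcripts. Acinar108, at 28.8 CPM of Vim and 57.6 CPM of Zeb1, held 288 CPM of the fibroblast list, nearly all of it 19 UMIs of Pdgfrb, and 259 CPM of the immune list. Acinar183, with 1 UMI each of Cdh2, Vim and Zeb1, had 5 UMIs of Col1a2 and 2 of Pdgfrb. Acinar186 and Acinar187 held 44.8 and 171.8 CPM of the fibroblast list, with 3 and 11 UMIs of Col3a1. In their titles these last 3 cells carry numbers between those of the fibroblast-rich cells Acinar182 and Acinar188. Acinar184 and Acinar185, also between them, had 0 CPM of the fibroblast list, as did Acinar181 and Acinar189 on the outer sides. The labels do not say whether title numbers follow the wells. The part of carried-over RNA in the mesenchymal and fibroblast UMIs of epithelial cells was not tested. In all, 76.9% of epithelial cells had no UMI of the fibroblast list.

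Acinar188 was the cell nearest to an intermediate from the other side. It met the fibroblast limit at 6578 CPM and carried Snai1, Zeb1, Zeb2 and Twist1 at 140.2, 117.8, 190.7 and 44.9 CPM, within or above the range of the other fibroblast-rich cells. Its Vim level of 168.2 CPM was the lowest of the 6 and its Cdh1 level of 89.7 CPM the highest. Its epithelial list stood at 6987 CPM, against 555 to 972 CPM in the other 5, which lies inside the epithelial range of 4543 CPM and above. It had no UMI of Cdh2 or Snai2. The labels give each sample as 1 cell, and whether a second cell shared its well was not tested.

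Within the epithelial class Cdh1 and Fn1 had enough UMIs for their patterns to be compared with other genes. The comparison used Spearman's rho of CPM over the epithelial cells of at least 40000 UMIs (all but 18), among 6564 genes with a mean of at least 5 UMIs. These values are descriptions; all genes of a cell share its library, depth and total. Cdh1 was most like Cldn4 (rho 0.66), which encodes a tight junction claudin, followed by Tmc4 (0.60), the autophagy receptor gene Sqstm1 (0.59), the lysosomal protease gene Ctsd (0.59) and Btg2 (0.58), an antiproliferative gene. It was least like Cycs (-0.63), the gene of cytochrome c, Gm10053 (-0.62) and the mitochondrial chaperonin gene Hspe1 (-0.61). The median levels of Cycs and Gm10053 were close, at 494 and 485 CPM, and whether they share reads was not tested. The rho of Cdh1 was -0.15 with the total UMIs of a cell and 0.21 with Fn1.

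Fn1 was most like Pxdn (rho 0.75), which encodes a peroxidase of the basement membrane, Igfbp7 (0.74), a secreted matrix-associated protein gene, Cald1 (0.73), which encodes the actin-binding protein caldesmon, Basp1 (0.73) and 2610307P16Rik (0.72). The lowest were Gsta1 (-0.73), a glutathione transferase gene, Gm3776 (-0.72) and Fam3b (-0.70). Gsta1 and Gm3776 may share reads as near copies, so their separate values are uncertain. The median rho over all genes compared was -0.02 for Cdh1 and 0.05 for Fn1, and that of Fn1 with total UMIs was 0.00.

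Of 9 other cadherins, with 1 CPM added, 1 was at least 4-fold higher in epithelial cells (6.91% of all genes). Another 1 was at least 4-fold lower (6.7% of all genes) and 7 lay between. A count of 1 in 9 lies near those shares. Of these 7, Cdh4, Cdh5, Cdh15 and Cdh16 stood at 0.411 to 1.35 CPM in epithelial cells with at most 1 UMI in fibroblast-rich cells, too low to pass 4-fold upward. Cdh17, the liver-intestine cadherin, stood at 182.2 CPM in epithelial cells and 33.7 CPM in fibroblast-rich cells. The median of the fibroblast-rich cells was 6.87 CPM and their highest cell stood at 151.4 CPM. Cdh6, the kidney-type cadherin, stood at 220 and 66.5 CPM, a log2 ratio of 1.73. Cdh13, an anchored cadherin with no cytoplasmic tail, stood at 170.2 and 108.6 CPM. The fibroblast-rich cells ran from 0 to 361 CPM of Cdh13 with a median of 51.3 CPM, against an epithelial median of 107.7 CPM. Cdh11, the cadherin of fibroblasts and osteoblasts, had 11 UMIs in 9 epithelial cells (0.411 CPM), against 228 to 825 CPM in each fibroblast-rich cell. The catenins, which link cadherins to actin, were all within 4-fold, from a log2 ratio of -0.04 for Jup to 1.06 for Ctnnd1, and Ctnnb1 stood at 878 CPM in epithelial cells and 437 CPM in fibroblast-rich cells.

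Factors that keep cells epithelial were mostly higher in the epithelial class. With 1 CPM added, 6 of 8 were at least 4-fold higher (6.91% of all genes) and none was lower by as much (6.7%). Among the 6, Grhl1 stood at 5.98 CPM in epithelial cells and had 0 UMIs in fibroblast-rich cells. Against the level of 3 counts (2.81 CPM) it was 2.13-fold higher, and the exact interval of its log2 ratio begins at 0.775. The splicing regulator Esrp1 stood at 151.2 CPM, with a UMI in 97.7% of epithelial cells, against 9.36 CPM and 2 of 6 fibroblast-rich cells. The RNA-binding protein gene Rbm47 stood at 212 and 12.2 CPM and Elf3, an epithelial ETS factor, at 111.2 and 17.8 CPM. Grhl2, a factor that activates Cdh1, stood at 43.7 and 9.36 CPM. Few cells set these fibroblast-rich levels. The highest fibroblast-rich cell stood at 50.5 CPM for Esrp1, 61.7 for Rbm47, 67.3 for Elf3 and 33.6 for Grhl2. The medians of that class were 0, 0, 10.2 and 2.19 CPM. Ovol1 and Ovol2, repressors of Zeb1, stood at 4.67 and 5.12 CPM in epithelial cells and had 1 UMI each in fibroblast-rich cells.

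Of the 8 other EMT-linked transcription factors compared with 1 CPM added, 4 were at least 4-fold lower in epithelial cells (6.7% of all genes). Snai3 alone passed 4-fold upward (6.91% of all genes). Of those lower, Prrx1 and Twist2 had 8 and 4 epithelial UMIs and reached 10 UMIs only with the fibroblast-rich cells. Sox4 (264 CPM in epithelial cells and 290 CPM in fibroblast-rich cells) and Tcf3 (21.8 and 22.5 CPM) were nearly level. Tcf4 stood at 75.6 CPM with a UMI in 94.8% of epithelial cells, against 966 CPM in fibroblast-rich cells, with 552 CPM in the lowest of these and 317 CPM in the highest epithelial cell. Prrx1, a homeobox gene of mesenchyme, had 8 UMIs in epithelial cells and 349 CPM in fibroblast-rich cells. Snai3, a Snail relative, had 95 UMIs in 56 epithelial cells (3.55 CPM) and 0 in the fibroblast-rich cells, where 3 counts would be 2.81 CPM. Against that floor it was 1.26-fold higher, and the exact interval of its log2 ratio begins at 0.0118. Its 4-fold value rests on the CPM added.

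Of 10 mesenchymal effector genes, 9 were at least 4-fold lower in epithelial cells (6.7% of all genes) and none was higher by as much (6.91%). Of those lower, Lox, Postn and Fap had 2, 4 and 6 epithelial UMIs and reached 10 UMIs only with the fibroblast-rich cells. Sparc, a matrix-binding glycoprotein gene, stood at 57.4 CPM with a UMI in 63.01% of epithelial cells, against 5204 CPM in fibroblast-rich cells. Itga5, whose product pairs to form the fibronectin receptor, stood at 17.9 CPM with a UMI in 78.03% of epithelial cells, against 529 CPM in fibroblast-rich cells. Tnc, a matrix glycoprotein gene of wounds, stood at 1.98 CPM with a UMI in 5.20% of epithelial cells, against 736 CPM in fibroblast-rich cells. The classes overlapped for Tnc, with the highest epithelial cell at 359.3 CPM and the lowest fibroblast-rich cell at 70.97 CPM. Cd44, a hyaluronan receptor gene often listed with EMT, was the exception at 441 CPM in epithelial cells and 232 CPM in fibroblast-rich cells.

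**Figure D5:**
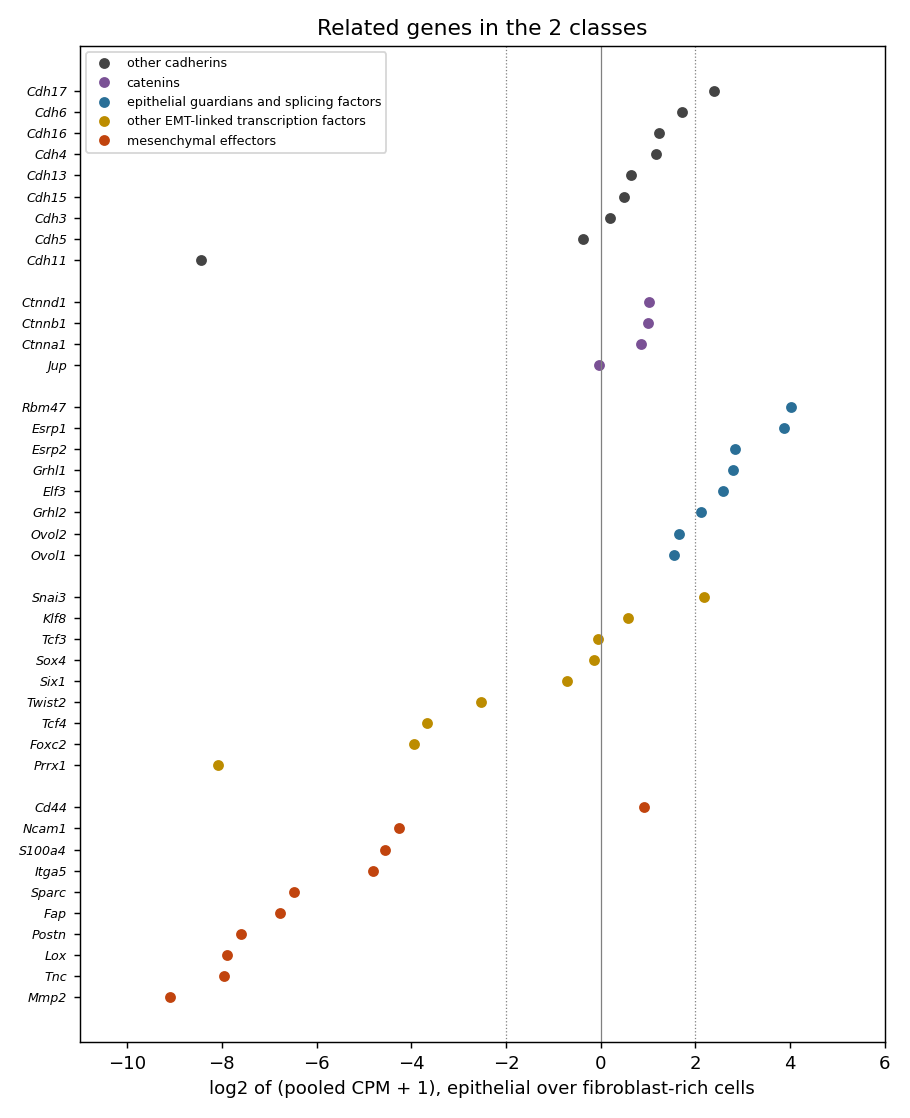
Log2 ratio of pooled CPM with 1 added, epithelial over fibroblast-rich cells (horizontal), for the genes of the 5 related lists (rows, coloured by list); dotted lines mark 4-fold and the solid line equal levels. Mesenchymal effectors lie left of the 4-fold line with the exception of Cd44, and 6 of 8 epithelial guardians and splicing factors lie right of it.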

How the data were processed

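RNA was measured by Smart-seq3 in 179 single cells. The deposited tables hold raw UMI counts and raw read counts, whole numbers with cells in rows and 32100 Ensembl genes. Per the submitters' processing notes, the tools include STAR and featureCounts and the builds listed are mm10 and GRCm38. Tool versions, the collapsing of UMIs, the use of strand and the choice of cells are not stated there or in the labels. Titles tied each cell to its sample; 31985 genes had a symbol. Gene positions and overlaps are those of GENCODE M21 on GRCm38, promoter sequences those of RefSeq on GRCm38.p6.

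All cells had at least 1000 UMIs and were kept. A cell was fibroblast-rich with at least 1000 CPM of the fibroblast list, otherwise epithelial with at least 1000 CPM of the epithelial list; neither list holds a member. Doublets were not searched for, since a sample is 1 cell by its label. All cells belong to 1 labelled group, so no test was made. Pooled levels have exact Poisson, shares exact binomial (Clopper-Pearson) and ratios exact conditional 95% intervals, and 0 counts were read as allowing 3. The comparison over all genes took genes with at least 10 UMIs in both classes together, 1 CPM added. Named genes are the members, up to 4 of each related list in order of level, and the 5 most and 3 least like genes of members that average 1 UMI or more per epithelial cell; further genes and cells were named after their values were seen. Members, lists and the limit of 1000 CPM were chosen with earlier results of these data known. The calls of the comparison over all genes, Spearman's rho and the thinned totals were checked on simulated counts with Poisson error only. The classes, the intervals, the detection shares and the partial switch rule were not checked in this way. Scripts ran under Python 3.11.15 (matplotlib 3.10.9, scipy 1.17.1, pandas 2.3.3, numpy 2.4.6).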

Additional observations from a re-analysis of the deposited data

Results flagged for a closer look

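Among the 6 fibroblast-rich cells, 4 members had a cell far from the rest by Dixon's ratio of gap to range. The 6 cells were grouped by their fibroblast genes and are not replicates, and chance gives such a gap in about 1 of 20 sets of normally distributed values, which CPM values with several zeros need not be. Cdh1 in Acinar188 stood at 89.7 CPM, where the next highest cell had 17.5 CPM. Fn1 in Acinar6 stood at 4207 CPM, where the next had 1645 CPM. Snai2 in Acinar182 stood at 14.95 CPM, where the next had 4.38 CPM, a difference of 2 UMIs against 1. Zeb1 in Acinar44 stood at 422 CPM, where the next had 193 CPM.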

How the results depend on the processing

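Of the values recomputed under other settings, 77.6% stayed within the interval of the reported value, or within 1.5 times for counts, and 39 moved. Only log2 ratios could change direction, and 0 did. The share that stayed is a loose guide. The limits of 500 and 3000 CPM left both classes unchanged, and shares of 6 cells have wide intervals. The log2 ratio of Cdh1 was 5.41 without Acinar188, 5.31 with title numbers up to 96 and 3.61 with title numbers from 97, 3 fibroblast-rich cells each. That of Vim was -9.75 with title numbers from 97. Over the settings with a finite log2 ratio, it spanned 3.61 to 5.41 for Cdh1, -11.06 to -9.75 for Vim and -6.02 to -2.56 for Cdh2. It spanned -3.71 to -3.15 for Fn1, -10.55 to -9.81 for Snai1 and -7.34 to -4.71 for Snai2. For Zeb1 it spanned -7.11 to -5.73 and for Zeb2 -7.15 to -4.63. Snai2 had no finite ratio with title numbers from 97, where it had 0 UMIs in epithelial cells. Limits of 500 and 3000 CPM gave the same 6 fibroblast-rich cells. The share of epithelial cells with a Vim UMI was 3.23% at 40000 UMIs, 7.51% without thinning and 0% at 20000 UMIs. The number of cells with a partial switch was 1 as defined, 6 with 1 Vim UMI, 2 with no other factor, 3 on read counts, and 0 with 10 Vim UMIs, with 2 other factors or after thinning to 40000 UMIs. Settings that leave out named cells other than Acinar188 over all title numbers were added after the data were examined. At a 2-fold limit 4 other cadherins were higher in epithelial cells and at 8-fold 0 were; at 8-fold 2 epithelial guardians and splicing factors were higher, and 4 with 5 CPM added; with at least 50 UMIs 2 other EMT-linked factors were lower. No paired analysis was possible because the labels give 1 group. Members with under 10 UMIs in a class (Snai1, Snai2 and Twist1 in epithelial cells) are limited by depth.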
